A study of Mus musculus with 8 samples.

Results

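The genes of respiratory complexes II to V were examined at their promoters. The members were 48 nuclear genes, taken from a list of names and not from any measured value, among 26180 annotated genes. They comprised 4 genes of complex II, 9 of complex III, the cytochrome c gene Cycs, 12 subunit genes of complex IV, 7 genes for assembly factors of complex IV and 15 genes of complex V. All 48 were found in the annotation, 1 of them (Atp5f1) through an older symbol, and they lay on 18 chromosomes. Wild-type mouse epidermis was taken at postnatal day 0.5, freed from dermis with dispase and dissociated with trypsin. The series held 8 libraries of 6 antibodies, and peak lists of 4 libraries were used: MOF by ChIPseq, and Rfx2, H3K4me3 and H3K27ac by Cut&Run. The H3K4me3 and H3K27ac lists are attached by the labels to the repeat libraries, although the name of the H3K4me3 list does not carry the repeat mark. All samples shared 1 genotype and 1 age, so no condition was compared. Each antibody had 1 list, so there is no replicate error. Intervals of shares given below are exact (Clopper-Pearson) 95% intervals, and intervals of medians are 95% intervals taken from ranked values. Both cover counting error over genes only.

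Electrons from NADH and succinate pass along the inner mitochondrial membrane to oxygen, and ATP synthase uses the proton gradient that this creates. Complex II (succinate dehydrogenase) feeds electrons from succinate into ubiquinone, complex III passes them on to cytochrome c, complex IV (cytochrome c oxidase) hands them to oxygen, and complex V is the ATP synthase. Complex II is made only of nuclear-encoded proteins, whereas complexes III, IV and V also hold subunits encoded by the mitochondrial chromosome. MOF (KAT8) acetylates lysine 16 of histone H4. H3K4me3 marks active promoters, H3K27ac marks active promoters and enhancers, and Rfx2 is a transcription factor that binds the X-box of ciliary genes. The comparison asked at which respiratory chain genes MOF lay at the promoter, and whether the complexes differed.

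H3K4me3 and H3K27ac were present at every member promoter, and MOF at 30 of 48. A gene was counted when a peak overlapped by at least 1 bp the window from 1 kb upstream to 100 bp downstream of one of its curated RefSeq transcription start sites (TSSs). H3K4me3 lay at 48 of 48 member promoters (92.6 to 100%), against 54.0% of all genes. H3K27ac also lay at 48 of 48 (92.6 to 100%), against 44.1% of all genes. MOF lay at 30 of 48 (62.5%, 47.4 to 76.0%), against 23.7% of all genes, 42.0% of genes with H3K4me3 and 48.8% of genes with both marks. The share of members fell to 15 of 48 (31.2%) with the stronger 50% of regions, where 14.6% of all genes and 30.7% of genes with both marks carried MOF. It was 17 of 48 (35.4%) with the region's centre in the window, where those shares were 14.7% and 30.8%. The MOF list, with 17546 regions, is longer than the set the study counted, and every MOF share here rests on it. The interval for the members lay above the shares for all genes and for genes with H3K4me3 and included the share for genes with both marks. Rfx2 lay at 0 of 48 member promoters (0 to 7.40%), against 1.21% of all genes, and the nearest Rfx2 peak to any member was 17354 bp from the TSS of Atp5d. The Rfx2 library was the shallowest of those used by the study's own read totals. In whole tissue, fewer cells carrying a mark and less signal per cell cannot be told apart.

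**Figure D1:**
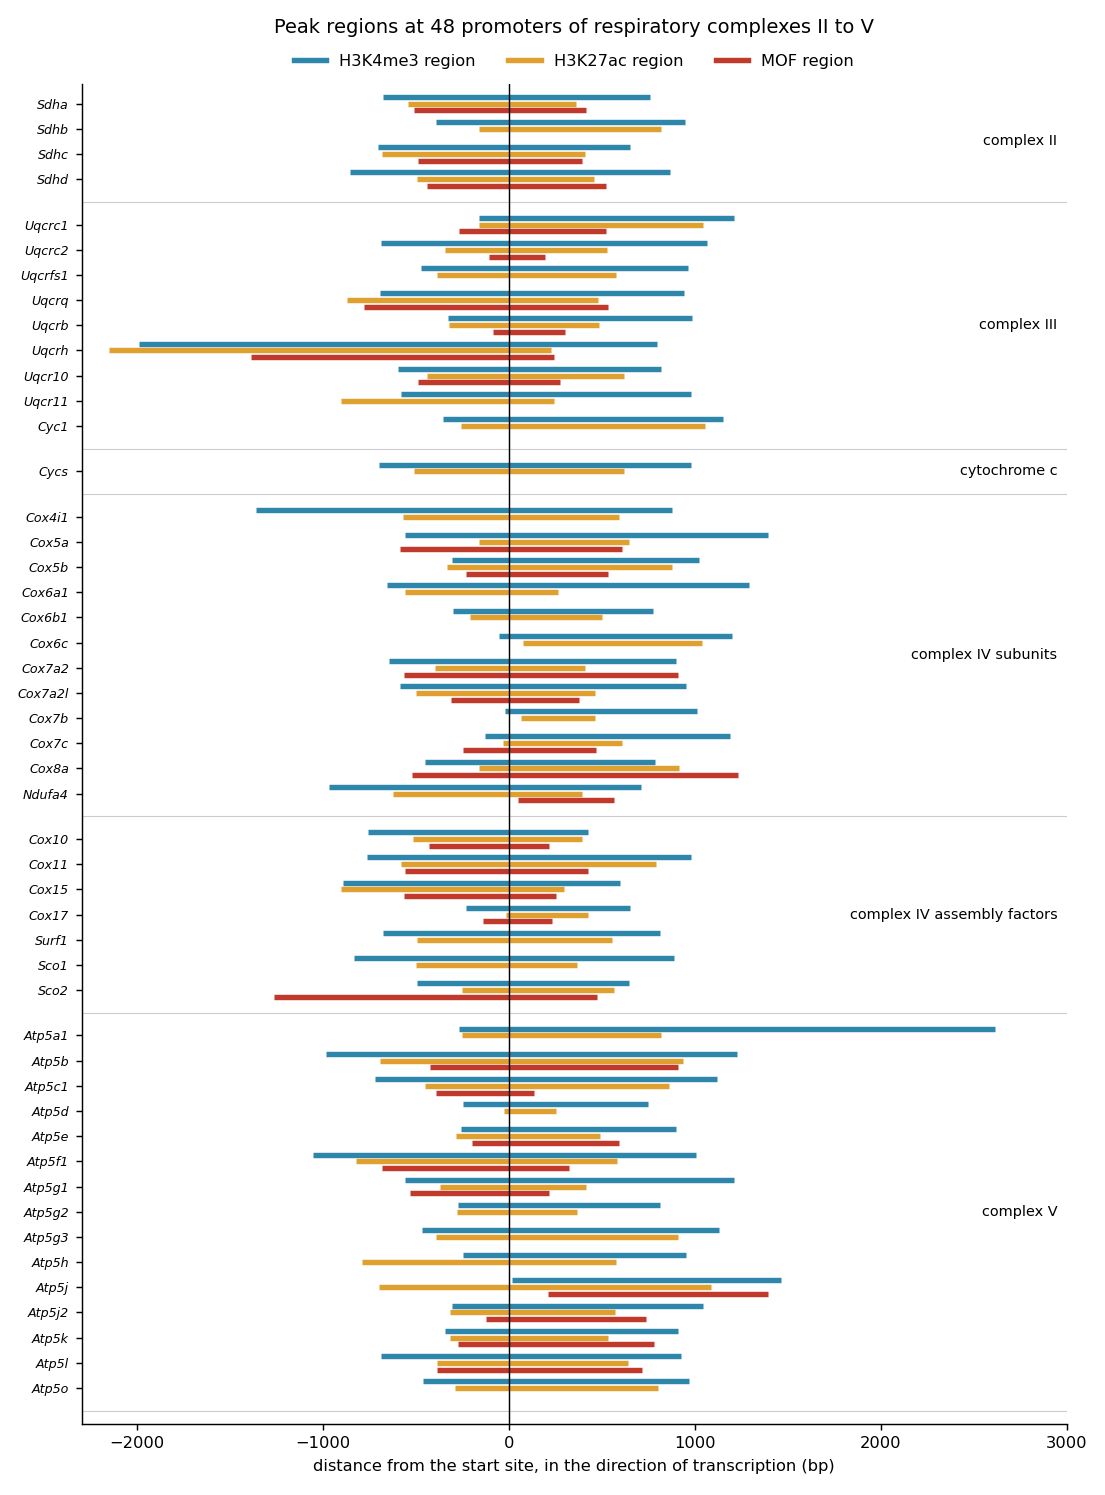
Extent of the strongest H3K4me3 (blue), H3K27ac (orange) and MOF (red) region at each of the 48 member promoters, by complex, in bp from the outermost TSS with transcription to the right. All 48 genes carry both marks, 30 carry MOF, and the MOF region covers a TSS at 29 of those 30.

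The tissue was checked with marker genes. Of 12 epidermal markers, 7 carried H3K4me3 (58.3%) and 6 carried H3K27ac (50%) at the promoter, close to the shares of all genes, and 2 (Krt14 and Dsc3) carried MOF. Krt14, Itgb4, Dsg3, Dsc3 and Perp carried both marks, Krt5 and Trp63 carried H3K4me3 without H3K27ac, Itga6 carried H3K27ac without H3K4me3, and Krt1, Krt10, Lor and Ivl, which mark differentiating layers, carried neither. H3K4me3 lay at 3 of 7 dermal fibroblast markers (Col1a2, Pdgfra and Dcn) and H3K27ac at 1 of 7 (Dcn), and neither mark lay at any of 6 muscle markers. MOF lay at Col1a2 and Pdgfra among the fibroblast markers and at no muscle marker. Whether dermal cells contributed to the members' peaks was not tested.

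The shares with MOF did not differ between the complexes beyond counting error. MOF lay at 3 of 4 complex II genes (75%, 19.4 to 99.4%), 6 of 9 complex III genes (66.7%, 29.9 to 92.5%), 7 of 12 complex IV subunit genes (58.3%, 27.7 to 84.8%), 5 of 7 complex IV assembly factor genes (71.4%, 29.0 to 96.3%) and 9 of 15 complex V genes (60.0%, 32.3 to 83.7%). Cycs lacked MOF. All these intervals overlapped, and with so few genes in each complex a difference between complexes was not detectable. The shares spread out when the centre of the MOF region had to lie in the window, with 3 of 4 genes of complex II (75%), 4 of 9 of complex III (44.4%), 2 of 12 complex IV subunits (16.7%), 5 of 7 complex IV assembly factors (71.4%) and 3 of 15 of complex V (20%), against 14.7% of all genes and 30.8% of genes with both marks under the same rule. Complex I subunit genes, which belong to the same chain and were not members, carried MOF at 26 of 36 promoters (72.2%, 54.8 to 85.8%), an interval that also overlapped that of the members.

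**Figure D2:**
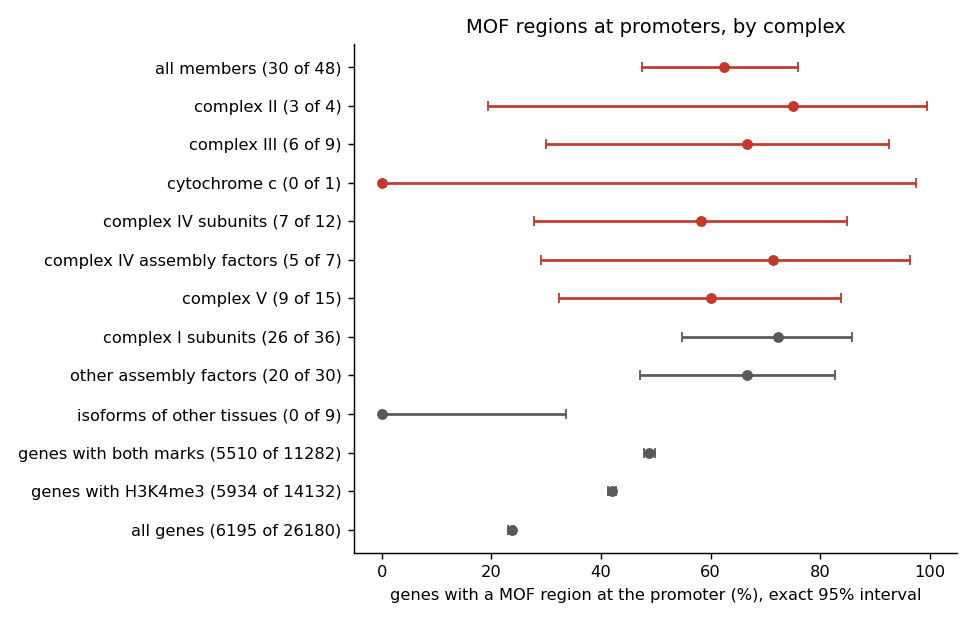
Share of genes with a MOF region at the promoter (points, in percent) with exact 95% intervals (bars), for the members and their complexes (red) and for other gene sets (grey). The intervals of the complexes overlap, and all members together reach 62.5%, against 48.8% of genes with both marks.

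The promoters that illustrate these results are printed below from RefSeq, each covering 250 bases before and 50 bases from the TSS on build GRCm38.p6 (mm10), 5′ to 3′ on the strand of the gene. Capitals mark matches to motifs of NRF1 or of ETS factors such as GABP, both known regulators of respiratory chain genes, and in Cycs the cyclic AMP response element (CRE). The first 5 belonged to members with MOF and were chosen because they hold an NRF1 match, an ETS match or both. The printed set therefore does not show how often such matches occur with MOF, for which shares are given later. Atp5j has 5 annotated TSSs, and its window belongs to one downstream of the outermost.
Sdha (chr13:74350191-74350490, minus strand): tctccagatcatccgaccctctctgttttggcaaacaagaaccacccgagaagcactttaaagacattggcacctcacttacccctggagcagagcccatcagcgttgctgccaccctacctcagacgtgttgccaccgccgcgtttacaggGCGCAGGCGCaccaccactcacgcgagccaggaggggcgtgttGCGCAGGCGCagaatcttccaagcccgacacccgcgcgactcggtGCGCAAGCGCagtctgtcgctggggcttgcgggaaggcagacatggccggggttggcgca
Sdhd (chr9:50603800-50604099, minus strand): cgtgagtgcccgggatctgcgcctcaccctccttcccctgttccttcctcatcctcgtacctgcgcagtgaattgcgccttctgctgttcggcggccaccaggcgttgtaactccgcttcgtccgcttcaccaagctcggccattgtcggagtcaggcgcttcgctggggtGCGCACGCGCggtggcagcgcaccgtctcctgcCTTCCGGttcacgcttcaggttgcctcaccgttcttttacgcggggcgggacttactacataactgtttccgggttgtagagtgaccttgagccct
Uqcrc1 (chr9:108936398-108936697, plus strand): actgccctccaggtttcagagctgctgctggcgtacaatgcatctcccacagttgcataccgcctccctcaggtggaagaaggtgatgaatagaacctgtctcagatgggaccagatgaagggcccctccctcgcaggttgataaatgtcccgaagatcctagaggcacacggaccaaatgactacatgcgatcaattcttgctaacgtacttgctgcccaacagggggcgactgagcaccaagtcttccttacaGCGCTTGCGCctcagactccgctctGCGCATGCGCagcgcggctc
Atp5j (chr16:84834927-84835226, minus strand): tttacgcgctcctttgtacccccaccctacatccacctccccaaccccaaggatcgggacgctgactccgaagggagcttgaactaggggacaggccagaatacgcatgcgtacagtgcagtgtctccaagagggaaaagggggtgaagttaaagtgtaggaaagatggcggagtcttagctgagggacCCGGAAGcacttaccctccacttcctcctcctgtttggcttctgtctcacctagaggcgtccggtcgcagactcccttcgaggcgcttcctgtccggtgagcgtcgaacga
Atp5k (chr5:108434350-108434649, minus strand): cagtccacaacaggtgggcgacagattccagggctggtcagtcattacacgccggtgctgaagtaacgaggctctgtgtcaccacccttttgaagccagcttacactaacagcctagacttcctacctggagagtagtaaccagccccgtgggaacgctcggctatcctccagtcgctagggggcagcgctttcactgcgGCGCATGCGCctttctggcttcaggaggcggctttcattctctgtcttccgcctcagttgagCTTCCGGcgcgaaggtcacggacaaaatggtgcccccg

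The next 3 belonged to members without MOF. Cox6a1 and Atp5h hold both motifs, and Cycs holds neither but has a CRE.
Cox6a1 (chr5:115348909-115349208, minus strand): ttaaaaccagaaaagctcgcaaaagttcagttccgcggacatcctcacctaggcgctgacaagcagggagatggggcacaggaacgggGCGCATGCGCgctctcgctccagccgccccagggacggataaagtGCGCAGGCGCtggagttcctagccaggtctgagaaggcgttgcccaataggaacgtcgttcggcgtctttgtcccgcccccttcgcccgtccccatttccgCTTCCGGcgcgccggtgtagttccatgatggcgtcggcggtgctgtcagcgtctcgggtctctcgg
Atp5h (chr11:115419870-115420169, minus strand): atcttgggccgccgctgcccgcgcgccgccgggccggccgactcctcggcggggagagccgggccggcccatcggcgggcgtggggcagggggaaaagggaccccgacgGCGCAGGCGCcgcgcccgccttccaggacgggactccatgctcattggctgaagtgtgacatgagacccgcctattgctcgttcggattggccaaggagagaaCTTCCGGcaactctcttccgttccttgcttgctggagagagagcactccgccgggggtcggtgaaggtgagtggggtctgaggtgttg
Cycs (chr6:50566520-50566819, minus strand): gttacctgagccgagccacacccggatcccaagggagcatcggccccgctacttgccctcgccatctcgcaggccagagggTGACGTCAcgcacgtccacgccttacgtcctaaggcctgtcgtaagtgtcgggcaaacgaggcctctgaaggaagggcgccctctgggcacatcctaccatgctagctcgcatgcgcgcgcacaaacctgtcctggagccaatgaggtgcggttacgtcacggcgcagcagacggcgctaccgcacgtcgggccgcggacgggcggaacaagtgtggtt

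Complex II showed MOF at the genes of the flavoprotein and of both membrane anchors. The MOF list gives each region a score whose scale is not stated, so it serves only to rank regions within that list. Sdha, the flavoprotein that oxidizes succinate, had a MOF score of 1160 over a region of 922 bp from -509 to 412 bp of the TSS, at percentile 89.4 of genes with MOF. Sdhc and Sdhd, the anchors that bind ubiquinone, had scores of 572 and 603. Sdhb, the iron-sulfur subunit, carried no MOF, and the nearest region was 98703 bp away. Its H3K4me3 fold enrichment was 8.44, above the 7.82 of Sdhd. By H3K4me3, Sdhc was highest in complex II with a fold enrichment of 12.3. The H3K27ac fold enrichment was 10.1 at Sdha, 10.4 at Sdhc and 9.14 at Sdhd, and 7.44 at Sdhb.

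In complex III, MOF lay at 6 of 9 genes (29.9 to 92.5%), an interval that includes the 48.8% of genes with both marks. Genes with MOF were both core protein genes and most genes of the small subunits. The genes of the redox subunits were among those without it. Uqcrq, a small ubiquinone-binding subunit, had the highest MOF score of all members (1279, percentile 93.1), in a region of 1316 bp. The core protein genes Uqcrc1 and Uqcrc2 had scores of 766 and 571, and the region at Uqcrc2 was the narrowest among the members, at 304 bp. Uqcrb scored 571 and Uqcr10 scored 604. The lowest score in the complex was 447 at Uqcrh, the hinge protein, whose region of 1631 bp was centred -573 bp from the TSS. Neither Cyc1 (cytochrome c1) nor Uqcrfs1 (the Rieske iron-sulfur protein) carried MOF, and the nearest regions lay 24831 and 26360 bp away. Uqcr11, another small subunit, also lacked it, with the nearest region at 6716 bp. H3K4me3 fold enrichment ran from 5.07 at Uqcrh to 11.3 at Uqcrb, and H3K27ac from 5.03 at Uqcr11 to 13.3 at Uqcrc2. Cycs, which encodes the electron carrier between complexes III and IV, had an H3K4me3 fold enrichment of 7.92 and an H3K27ac fold enrichment of 8.85, and its nearest MOF region was 108904 bp away.

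Among complex IV subunits, 7 genes carried MOF, and Cox4i1, Cox6a1, Cox6b1, Cox6c and Cox7b did not. Cox4i1, the general form of a subunit that surrounds the catalytic core, had the nearest MOF region at 10214 bp. For Cox6a1 and Cox6b1 the distances were 6384 and 7696 bp. For Cox6c the nearest region was 213500 bp away, and for Cox7b, the only member on the X chromosome, 1532486 bp. Cox6c and Cox7b were also the only members whose H3K27ac region did not cover the TSS, beginning 77 and 63 bp downstream of it. Cox7a2 had the highest score of this group (1201), followed by Cox7a2l (969), a paralogue that takes part in supercomplex assembly, and Cox7c (736). Cox5a and Cox5b, which sit on the matrix side, scored 522 and 420, and Cox8a scored 430 in the widest MOF region of all members (1757 bp). Ndufa4, first assigned to complex I and later placed in complex IV, scored 494, and its region began 47 bp downstream of the TSS. H3K4me3 fold enrichment was lowest at Cox5a (5.95) and highest at Cox6b1 (11.8), a gene without MOF. H3K27ac was lowest at Cox7b (5.63) and highest at Cox7a2 (11).

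The assembly factors of complex IV spanned nearly the whole range of MOF scores. Both genes of heme A synthesis carried MOF, with the lowest score of all members at Cox10 (294, at percentile 1) and one of the highest at Cox15 (1219, percentile 91.3). Among the copper delivery genes, Sco2 scored 650, Cox17 scored 494 and Cox11 scored 357, whereas the nearest MOF region to Sco1 was 27349 bp away. Surf1, whose loss is known to cause Leigh syndrome, also lacked MOF, with the nearest region at 5226 bp. Cox17 had the highest H3K4me3 fold enrichment of all members (15.1) in their narrowest H3K4me3 region (882 bp), together with an H3K27ac fold enrichment of 13.3. Surf1 was lowest of this group for both marks, with 5.64 for H3K4me3 and 4.63 for H3K27ac.

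In complex V, MOF lay at 9 of 15 genes (32.3 to 83.7%), an interval that includes the 48.8% of genes with both marks. Among genes of the catalytic head and its central stalk, Atp5b (beta) scored 603, Atp5c1 (gamma) scored 1004 and Atp5e (epsilon) scored 386. Atp5a1 (alpha) and Atp5d (delta) carried no MOF region in the window. A MOF region began 118 bp downstream of the TSS of Atp5a1, past the end of the window at 100 bp, and it counted when the window was widened to 500 bp or 2.5 kb on either side. Of the genes Atp5g1, Atp5g2 and Atp5g3, which encode the same mature c subunit of the rotor ring, only Atp5g1 carried MOF (score 426), and the nearest regions to the other two lay 5144 and 18041 bp away. Among peripheral stalk and membrane subunits, MOF lay at Atp5f1 (subunit b, 863), Atp5j (F6, 375), Atp5j2 (f, 544), Atp5k (e, 1052) and Atp5l (g, 999). It was missing at Atp5h (d) and Atp5o (OSCP), with the nearest regions at 6226 and 4628 bp. Atp5k had the highest score of complex V and Atp5j the lowest. Atp5d had the lowest H3K4me3 (4.07) and H3K27ac (2.77) fold enrichment of all members. The highest in complex V were 11.2 at Atp5e for H3K4me3 and 10.2 at Atp5g1 for H3K27ac.

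The interval of the members' median MOF score included the median of all genes with MOF. The median score of the 30 members with MOF was 588 (95% interval of the median 494 to 766, range 294 to 1279), against 656 at all 6195 genes with MOF and 768 at the 26 complex I subunit genes with MOF. The median was 603 in complex II, 588 in complex III, 522 and 494 for subunits and assembly factors of complex IV, and 603 in complex V. Of these members, 15 scored above the median of the whole MOF list (582). MOF regions at members had a median width of 873 bp, against 1008 bp at all genes with MOF. They covered a TSS at 29 of 30 members (96.7%, 82.8 to 99.9%), against 85.5% of all genes with MOF, and the exception was Ndufa4. An inner block of the region, as marked in the list, covered a TSS at 20 of 30 members (66.7%, 47.2 to 82.7%), against 46.9%. No test was made of these differences.

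Mark levels at members were near those of other marked genes, with H3K27ac somewhat higher. The median H3K4me3 fold enrichment was 8.45 (4.07 to 15.1), against 8.18 at the 11282 genes with both marks, and the median width 1469.5 bp, against 1406 bp. For H3K27ac the median fold enrichment was 7.69 (2.77 to 13.3), against 6.77, and 35 of 48 members lay at or above the median of genes with H3K27ac. By complex, the H3K27ac median was 9.61 in complex II, 7.62 in complex III, 8.06 for complex IV subunits, 9.53 for complex IV assembly factors and 7.05 in complex V. The H3K4me3 medians in the same order were 8.79, 8.58, 8.60, 9.08 and 7.77. Complex V had the lowest median among the multigene groups for both marks, and its values overlapped those of every other group.

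**Figure D3:**
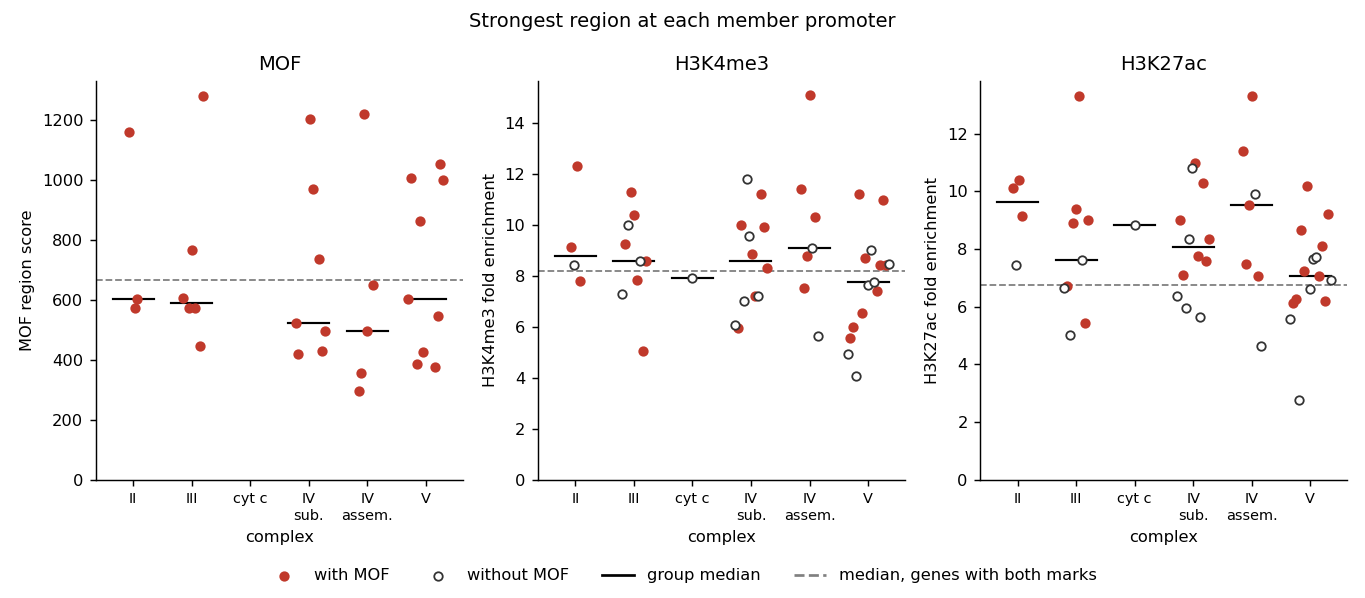
MOF region score (left), H3K4me3 fold enrichment (middle) and H3K27ac fold enrichment (right) of the strongest region at each member promoter, by complex, for members with MOF (filled) and without MOF (open), where the bar is the group median and the dashed line the median of genes with both marks. The lowest H3K27ac value is Atp5d (2.77), and the H3K27ac median is 8.79 for the filled points and 6.79 for the open points.

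H3K27ac had a higher median at members with MOF than at members without it. The median H3K27ac fold enrichment was 8.79 (5.44 to 13.3) at the 30 members with MOF and 6.79 (2.77 to 10.8) at the 18 without, so the ranges overlapped. At all genes with both marks the medians were 7.20 with MOF and 6.35 without. For H3K4me3 the medians were 8.75 and 7.85 at members, whereas they were 8.06 and 8.30 at all genes with both marks. The H3K4me3 width did not separate the members, with medians of 1469.5 bp with MOF and 1466 bp without, against 1485 and 1328 bp at all such genes. Among all genes with both marks, split into 4 classes of nearly equal size by H3K4me3 width, the MOF share was 37.1% in the narrowest class and 58.1% in the widest. Among members, from the narrowest to the widest class, 1 of 5, 11 of 14, 12 of 20 and 6 of 9 carried MOF, so the share did not rise steadily. By H3K4me3 fold enrichment, from the lowest to the highest class, 4 of 8, 6 of 12, 11 of 18 and 9 of 10 members carried MOF, against 47.5%, 53.6%, 49.6% and 44.6% of all genes with both marks. Cox6b1, with 11.8 for H3K4me3, and Cox6c, with 10.8 for H3K27ac, were the strongest marked promoters without MOF.

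Some member promoters lie beside the start of a gene on the other strand. An oppositely oriented gene started within 1 kb of 19 of 48 members (39.6%, 25.8 to 54.7%). This interval lies above the 14.9% of all genes and includes the 27.3% of genes with both marks and the 36.1% of complex I subunit genes. In complex II these included Sdha with Ccdc127 (77 bp) and Sdhd with Timm8b (52 bp), which encodes a chaperone of mitochondrial protein import. In complex III they were Uqcrb with Gm10767 (65 bp), Uqcrh with Lrrc41 (199 bp) and Uqcr10 with Zmat5 (312 bp). In each of these 5 pairs both genes shared a MOF region. Cycs faced the non-coding gene 5430402O13Rik at 74 bp, and neither carried MOF.

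In complex IV the pairs were Cox4i1 with Emc8 (138 bp) and Gm27021 (83 bp), Ndufa4 with Phf14 (379 bp), Cox10 with the non-coding gene 2810001G20Rik (12 bp), Cox11 with Stxbp4 (76 bp), Cox15 with Cutc (23 bp), Surf1 with Surf2 (122 bp) and Sco1 with Adprm (52 bp). MOF was shared at Ndufa4, Cox10, Cox11 and Cox15 and missing from both genes at Cox4i1, Surf1 and Sco1. In complex V, MOF was shared by Atp5c1 and Kin (102 bp), Atp5f1 and Wdr77 (235 bp), and Atp5j and Gabpa (102 bp), the last of which encodes the DNA-binding subunit of GABP. It was missing from both Atp5h and Kctd2 (207 bp). Atp5a1 and Haus1 (117 bp) were the only pair that differed, since the MOF region was counted for Haus1 alone.

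With a partner within 1 kb, 13 of 19 members carried MOF (68.4%, 43.4 to 87.4%), and without one 17 of 29 did (58.6%, 38.9 to 76.5%). Among genes with both marks the shares were 60.7% and 44.4%. Where a region was shared, it cannot be told apart which of the genes it belonged to. For 17 of the 30 members with MOF, the region lay at no other gene.

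The interval for ETS motifs at member promoters lay above the share of genes with both marks, whereas for NRF1 the interval reached that share. Several patterns were compared with no correction for their number, and whether the ETS share could arise by chance was not tested. RefSeq promoter sequences were found for 39 members, and Sdhc, Uqcrc2, Uqcrq, Uqcrb, Cyc1, Cox4i1, Cox6c, Cox17 and Atp5a1 were not matched. Patterns were searched on both strands of each window of 300 bases, and none contained another. A gene with several windows counted when any of them held a match, so shares of all promoters are shares of genes. The NRF1 pattern, GCGC and TGCGC with any 1 base between them, was found in 10 of 39 (25.6%, 13.0 to 42.1%), against 13.1% of genes with both marks and 5.19% of all promoters. The ETS pattern CCGGAAG was found in 16 of 39 (41.0%, 25.6 to 57.9%), against 22.6% and 9.93%. At least one of them was present at 22 of 39 (56.4%, 39.6 to 72.2%), against 32.6% and 14.0%. The SP1 pattern GGGCGG showed the opposite, with 17 of 39 (43.6%, 27.8 to 60.4%), against 72.7% of genes with both marks and 38.2% of all promoters. The GC content of the members had a median of 59.0%, against 61.7% at genes with both marks.

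By complex, NRF1 matches were found at Sdha and Sdhd in complex II, Uqcrc1 in complex III, Cox6a1 in complex IV, and Atp5c1, Atp5g2, Atp5g3, Atp5h, Atp5k and Atp5o in complex V. As the printed sequences show, Sdha held 3 matches, starting at -98, -55 and -10 bp from the TSS. Uqcrc1 held matches starting 5 and 30 bp downstream of the TSS. ETS matches were found at 2 of 3 genes of complex II (Sdhb and Sdhd), 2 of 5 of complex III (Uqcrh and Uqcr11), 3 of 10 complex IV subunits (Cox6a1, Cox6b1 and Cox8a), 4 of 6 complex IV assembly factors (Cox10, Cox15, Surf1 and Sco1) and 5 of 14 of complex V (Atp5e, Atp5h, Atp5j, Atp5k and Atp5l). The interval of each of these ETS shares included the 22.6% of genes with both marks. Sdhd, Cox6a1, Atp5h and Atp5k held both motifs, and MOF lay at Sdhd and Atp5k but not at Cox6a1 and Atp5h.

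At least one of the NRF1 and ETS patterns was found at 12 of 25 sequenced members with MOF (48%, 27.8 to 68.7%) and at 10 of 14 without MOF (71.4%, 41.9 to 91.6%), intervals that overlap. Among genes with both marks the shares were 38.0% with MOF and 27.2% without. The CCAAT box was found at 18 of 39 members (46.2%), against 43.4% of genes with both marks and 41.1% of all promoters. The CRE pattern TGACGTCA was found at Uqcrfs1 and Cycs, both without MOF (5.13%, against 4.08% and 2.03%). The YY1 pattern ATGGCGGC was found at 1 of 39 (2.56%), at Cox10, against 6.37% and 2.60%. The TATA box (TATAAA) was found at Cox10 and Atp5l (5.13%, against 7.43% and 15.7%). The X-box was found at 0 of 39 (0 to 9.03%), against 1.95% of genes with both marks and 1.75% of all promoters. A match is a description of the sequence, not evidence of binding.

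**Figure D4:**
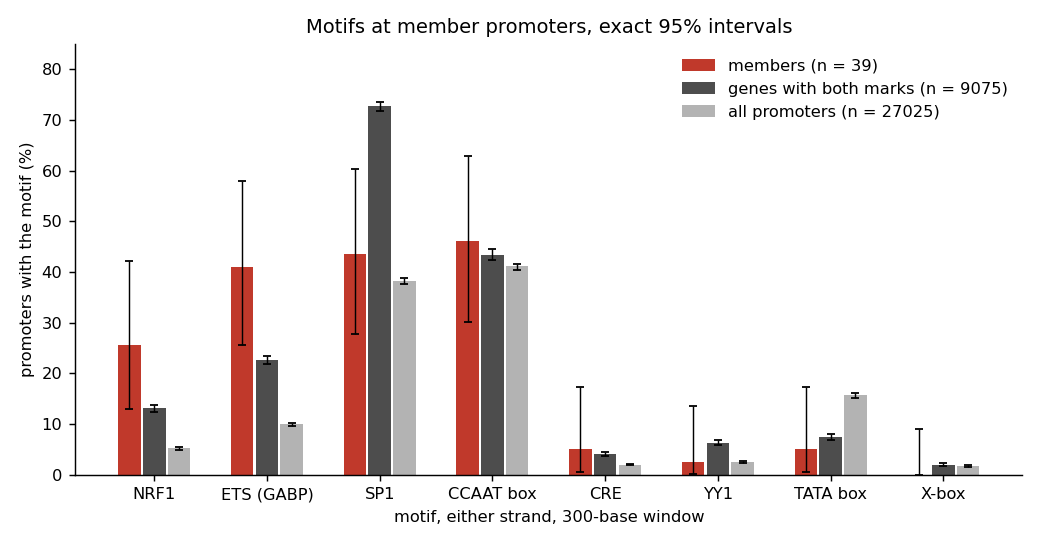
Share of genes (bars, in percent) with each motif on either strand of a promoter window, with exact 95% intervals, for 39 members, 9075 genes with both marks and all 27025 genes with a promoter sequence. The interval of the members lies above genes with both marks for ETS (41.0% against 22.6%), reaches them for NRF1 (25.6% against 13.1%) and lies below them for SP1 (43.6% against 72.7%).

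Genes for related proteins outside the member list were counted in the same way. Isoforms that replace a member in other tissues (Cox4i2, Cox6a2, Cox6b2, Cox7a1, Cox7b2, Cox8b, Cox8c, Cyct and Ndufa4l2) carried MOF at 0 of 9 promoters (0 to 33.6%), H3K4me3 at 2 of 9 (2.81 to 60.0%) and H3K27ac at 1 of 9 (0.281 to 48.2%), intervals that include the shares of all genes for MOF, H3K4me3 and H3K27ac. Cox6b2 had both marks, with an H3K4me3 fold enrichment of 9.52 and an H3K27ac fold enrichment of 4.86, and Cox7a1 had H3K4me3 alone (4.51, in a region of 200 bp). Of the 8 members that these isoforms replace, 3 carried MOF (Cox7a2, Cox8a and Ndufa4) and 5 did not (Cox4i1, Cox6a1, Cox6b1, Cox7b and Cycs). For comparison, MOF lay at 48.8% of genes with both marks and 23.7% of all genes. Other assembly factors of complexes II to V carried MOF at 20 of 30 promoters (66.7%, 47.2 to 82.7%), an interval that includes the 48.8% of genes with both marks, and carried both marks at 30 of 30. No difference between these lists was tested. Cox20 had the highest MOF score of these (1562). Of 4 other subunit and regulator genes of complexes IV and V, Usmg5 and Atp5s carried MOF, and Atpif1, the inhibitor of ATP synthase, and 2010107E04Rik did not.

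The distance between members and other marked genes shrank when fewer MOF regions were counted. When only the stronger 50% of each list was kept, 15 of 48 members carried MOF (31.2%), against 30.7% of genes with both marks. When the centre of the MOF region had to lie in the window, 17 of 48 did (35.4%), against 30.8%. With windows of 500 bp on either side of the TSS, 31 of 48 members carried MOF (64.6%), against 49.9%, and with 2.5 kb on either side 31 of 48 did, against 53.0%. In the inner blocks of MOF regions alone, a definition chosen after seeing the data, MOF lay at 25 of 48 members (52.1%), against 43.2%.

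**Figure D5:**
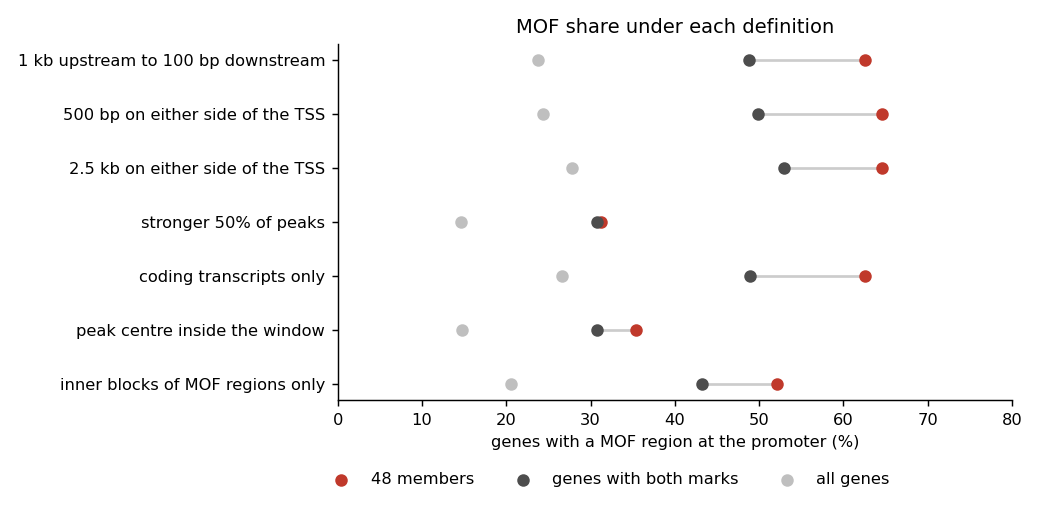
Share of genes with a MOF region at the promoter (in percent) under each definition, for the 48 members (red), genes with both marks by the first definition (dark grey) and all genes (light grey). The members exceed genes with both marks by 62.5% to 48.8% under the first definition and are level with them (31.2% and 30.7%) when only the stronger 50% of regions is kept.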

How the data were processed

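MOF ChIPseq and Rfx2, H3K4me3 and H3K27ac Cut&Run were done by the authors on newborn epidermis, and 4 of the 8 libraries were not used here. Per the study's methods, the authors aligned reads with Bowtie2 to mm10 and called peaks library by library with MACS2. Use of a control library for calling is not given in the sources used here. The deposited Rfx2, H3K4me3 and H3K27ac lists give a score, a fold enrichment, a −log10 p-value and a −log10 q-value for each peak. The q-values all lay under 0.05. The deposited MOF list (17546 regions) gives a score of unstated scale and no fold enrichment. It holds more regions than the study counted for MOF, so it may be another or a less filtered call. The authors called MOF on single-end reads and Rfx2 on whole fragments. The lists hold no read counts. By the read totals in the study's reporting summary, the depth differed several-fold between the libraries used. Among these it was lowest for Rfx2 and highest for the repeat H3K27ac library.

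Peaks were joined to TSSs of curated RefSeq transcripts on GRCm38.p6, and no peak ended beyond a chromosome. Overlaps were tested on simulated data, where 0 of 40000 windows gave a call other than that of bedtools (2.31.1). Where several peaks overlapped a promoter, the strongest gave the value. Shares, medians and exact intervals were computed with Python 3.11.15, pandas 2.3.3 and scipy 1.17.1, with no test, since each antibody had 1 list. Alternatives were other windows, the peak centre, the stronger 50% of each list, coding transcripts, members without an oppositely oriented gene and the inner MOF blocks. All 48 members could be named, each group by its members without MOF and its extremes. An item among the oppositely oriented genes is counted but not reported here. The members and the other lists were chosen with earlier results of these data known.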

Additional observations from a re-analysis of the deposited data

How the results depend on the processing

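Of 76 values recomputed for 12 results under 7 alternatives, 65 stayed within the interval of the reported value and 11 left it. Keeping the stronger 50% of each list gave MOF at 31.2% of members, 25% of complex IV subunit genes and 28.6% of complex IV assembly factor genes, against 14.6% of all genes and 30.7% of genes with both marks, and a median MOF score of 969, which rises by construction because lower scores were removed. Asking for the peak centre in the window gave MOF at 35.4% of members, 16.7% of complex IV subunit genes and 20% of complex V genes, against 14.7% of all genes and 30.8% of genes with both marks. It gave H3K4me3 at 31.2% and H3K27ac at 54.2% of members, against 25.5% and 26.2% of all genes. The median H3K4me3 centre lay 206 bp downstream of the TSS, beyond the window's end at 100 bp. Without members that have an oppositely oriented gene, complex II kept 1 gene and gave 0%, and the complex IV assembly factors kept 2 genes and gave 100%. The other windows, coding transcripts alone and the inner blocks of MOF regions, the last chosen after seeing the data, left every value within its interval. No paired analysis was possible because no antibody had more than 1 list, and no replicate could be left out for the same reason.

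The number of genes sets the precision: the interval for complex II ran from 19.4 to 99.4%. The lists hold no read counts, so an absent peak can also mean a signal below the authors' threshold.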

Other observations

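Some subunits of complexes III, IV and V are encoded by the mitochondrial chromosome (16299 bp), which is not packaged with histones, and all 4 lists held peaks on it. The MOF list had 4 regions that covered 58.9% of its length, with scores from 1294 to 12122, against a list median of 582. There were 8 H3K4me3 peaks covering 22.5%, with fold enrichments from 1.97 to 2.90, against a list median of 6.63. For H3K27ac there were 6 peaks covering 26.8% (2.76 to 4.43, median of the list 4.91), and for Rfx2 8 peaks covering 39.4% (2.19 to 6.97, median of the list 7.08). The cause was not tested.

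Among the 18 members without MOF at the promoter, 8 had a MOF region within 10 kb of the TSS and 10 did not. The matching share of other genes without MOF was not computed, so nothing particular to the members follows. At these 18 members the H3K4me3 region was centred a median of 259.5 bp downstream of the TSS, against 147 bp at the 30 members with MOF. No test was made of that difference.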
